A study of Mus musculus with 4 samples.

Results

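Chromatin accessibility at 9 immediate-early genes was examined in the aorta of control and vascular Ehlers-Danlos syndrome (VEDS) mice. The genes were *Egr1*, *Egr2*, *Egr3*, *Nr4a1*, *Nr4a2*, *Nr4a3*, *Ier2*, *Ier3* and *Btg2*, chosen by name from 21938 protein-coding genes of GENCODE vM21. For each gene, every ATAC-seq peak in the gene body or within 50 kb on either side was taken, which gave 72 peaks in VEDS males, 45 in control females, 1 in control males and 0 in VEDS females, and 72 regions once overlapping peaks were merged. ATAC-seq marks open chromatin by the insertion of adapters by the transposase Tn5, and a peak is a stretch with more sequenced tags than the local background of the same library.

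Control mice were Col3a1+/+ and VEDS mice were Col3a1G938D/+, which carry 1 copy of type III collagen with a glycine substitution. All were untreated, 60 days old (P60) and on a C57BL/6J background. Each library held pooled aortic tissue of 2 mice of the same age and sex, and each genotype had 1 female and 1 male library, so that no sex had a replicate within a genotype. A single-cell ATAC kit was used for the nuclei, but the peaks were called on each library in aggregate, and fewer cells of a type and less signal per cell cannot be told apart.

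The lists differed in length, with 41444 peaks for VEDS males and 21176 for control females against 1236 for control males and 504 for VEDS females. Each genotype therefore had 1 long and 1 short list, of opposite sex, and the numbered library names place the long lists in 1 run of numbers and the short lists in another. The median number of tags at a summit was 14 (control female) and 22 (VEDS male) in the long lists against 7 (control male) and 6 (VEDS female) in the short lists. Peaks lying mostly in repeats made up 69.6% (control male) and 28.1% (VEDS female) of the short lists. They made up 3.90% (control female) and 5.10% (VEDS male) of the long lists. With 2 against 2 libraries the smallest two-sided exact permutation p is 0.333, so that no difference between genotypes was tested, and a region without a peak was not read as closed. As a check of the tissue, all 7 promoters of smooth muscle markers (*Myh11*, *Acta2*, *Tagln*, *Cnn1*, *Lmod1*, *Smtn*, *Myocd*) carried a peak in both long lists, and none did in the short lists. Promoters of endothelial markers carried a peak for 1 of 5 genes in the control female list and for 4 of 5 in the VEDS male list, those of fibroblast markers for 2 of 4 in each. Of the 4 immune markers none had one in the control female list and *Csf1r* alone in the VEDS male list. The adipocyte, striated muscle and neuron lists had none for control females and 1 gene each for VEDS males (*Plin1*, *Ckm*, *Snap25*), and of the hepatocyte list *Apoa1* had one in both. The part of these cells in the peaks described here was not tested.

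Immediate-early genes are transcribed within minutes of a stimulus such as a growth factor, stretch or a calcium signal, without new protein synthesis. Serum response factor (SRF) drives many of them by binding a CArG box (CC, 6 bases each A or T, then GG), and CREB by binding the cyclic AMP response element (CRE, TGACGTCA) or the core TGACG on either strand. EGR1, EGR2 and EGR3 are zinc finger transcription factors, and NR4A1, NR4A2 and NR4A3 are orphan nuclear receptors that bind DNA without a known hormone. IER2 is a nuclear regulator of transcription, IER3 a regulator of cell survival, and BTG2 an antiproliferative protein that recruits deadenylases to mRNA.

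The promoters of the 3 NR4A genes are shown first because all of them repeat the CRE core, in capitals in the sequences. They are RefSeq promoter windows on GRCm38 (mm10), given 5′ to 3′ along the gene, and end at the base before the start site. The *Nr4a1* window is chr15:101266596-101266845 on the + strand, the *Nr4a2* window chr2:57124004-57124253 on the − strand, and the *Nr4a3* stretch chr4:48045055-48045152 on the + strand, which is cut where the annotated first exon begins. RefSeq windows matched 6 of the 9 genes.
Nr4a1: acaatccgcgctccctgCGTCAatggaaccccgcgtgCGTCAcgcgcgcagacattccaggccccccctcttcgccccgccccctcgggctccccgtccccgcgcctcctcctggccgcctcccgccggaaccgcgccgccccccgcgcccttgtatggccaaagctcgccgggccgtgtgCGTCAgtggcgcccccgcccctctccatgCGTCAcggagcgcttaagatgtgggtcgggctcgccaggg
Nr4a2: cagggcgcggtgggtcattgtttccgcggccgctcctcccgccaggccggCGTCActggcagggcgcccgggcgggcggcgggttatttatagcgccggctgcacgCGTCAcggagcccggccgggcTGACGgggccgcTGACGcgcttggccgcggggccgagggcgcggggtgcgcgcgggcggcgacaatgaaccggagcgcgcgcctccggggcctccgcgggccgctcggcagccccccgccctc
Nr4a3: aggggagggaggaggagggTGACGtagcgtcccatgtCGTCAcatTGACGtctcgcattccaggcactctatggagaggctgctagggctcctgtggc

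The *Nr4a1* and *Nr4a2* stretches each held 4 CRE cores, and the *Nr4a3* stretch 3, with a 4th in the first bases of the exon. A full CRE or a CArG box was found in none of them. Of all 32851 RefSeq promoters of 300 bases, 20.8% held at least 1 core, and 0.231% held at least 4, as each of these 3 windows did. This count was looked at after the values were seen. The core contains CG, and the *Nr4a1*, *Nr4a2* and *Nr4a3* windows were 72.3%, 81.7% and 64.7% G or C, against a median of 52.7% over all promoters.

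At *Egr2*, by contrast, CArG boxes lay upstream of an internal start site. The RefSeq window at the annotated 5′ end of *Egr2* (chr10:67535249-67535474) held 0 CArG boxes and 0 CRE cores, and no list had a peak over it. The stretch chr10:67537619-67537868 on the + strand, upstream of the start site at 67537869 and inside the gene's intron, is shown with its CArG box and CRE cores in capitals.
Egr2: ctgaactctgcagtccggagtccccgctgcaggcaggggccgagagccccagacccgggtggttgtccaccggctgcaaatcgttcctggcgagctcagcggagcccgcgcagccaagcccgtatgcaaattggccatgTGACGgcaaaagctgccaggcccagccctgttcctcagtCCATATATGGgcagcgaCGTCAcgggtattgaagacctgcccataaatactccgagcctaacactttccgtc

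Elsewhere in peaks at the 9 loci, exact CArG boxes outside *Egr1* lay at the places shown here, each with 10 bases on either side and the box in capitals. They are a second box of the *Egr2* promoter (chr10:67537494-67537503), one at −11086 bp of *Egr3* (chr14:70066113-70066122), one at −2328 bp of *Egr3* (chr14:70074871-70074880) and one at −14022 bp of *Btg2* (chr1:134093138-134093147, − strand).
Egr2 −371: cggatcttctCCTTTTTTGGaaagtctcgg
Egr3 −11086: aaaggagaagCCAAAATTGGccagactgag
Egr3 −2328: ctgtgcggttCCTTTAAAGGctgcgggttc
Btg2 −14022: gaagcgctgtCCTTATTTGGgcgcagaccc

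Full CREs outside *Egr1* are shown in the same way. They lay at −43 bp of a start site of *Nr4a2* (chr2:57115078-57115085, − strand), at −41 bp of *Ier2* (chr8:84662890-84662897, − strand), at −197 bp of *Btg2* (chr1:134079314-134079321, − strand) and at −44724 and −44316 bp of *Ier3* (chr17:35776957-35776964 and chr17:35777365-35777372, + strand).
Nr4a2 −43: gccccagtcgTGACGTCAggtcggaaat
Ier2 −41: ggtgttgcagTGACGTCActctcagtat
Btg2 −197: ttcccaataaTGACGTCAgtgagcgatg
Ier3 −44724: tccagacagcTGACGTCAcctgtccaga
Ier3 −44316: aaggcaggagTGACGTCAtctgtgtggg

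Exact CArG boxes lay mostly at the EGR genes, while full CREs were found at genes of all 3 groups. Peaks of any list held 10 CArG boxes, of which 9 were at *Egr1*, *Egr2* and *Egr3* and 1 at *Btg2*, and none at the NR4A, *Ier2* or *Ier3* loci. Within own promoters (peaks within 3 kb of a start site of the gene itself) the CArG boxes were at the 3 EGR genes alone. When 1 mismatch was allowed, all 9 genes had a CArG-like match in an own promoter peak, from 1 to 7 matches per gene, so that this held for exact boxes only. No share of all peaks with such a match stands beside this count, so it is not read as a trait of these genes. The 6 full CREs were at *Egr1*, *Nr4a2*, *Ier2*, *Ier3* and *Btg2*, and those in own promoters at *Nr4a2*, *Ier2* and *Btg2*. The CRE core outside a full CRE was found at all 9 loci, at 53 places.

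Compared with all peaks, a 300-bp window around the summit held a CArG box in 4 of 45 peaks at the loci in the control female list, where 3.02% of all peaks did, and in 5 of 72 in the VEDS male list, where 3.09% did. A full CRE was in the window of 4 of 45 and 5 of 72 peaks, against 2.59% and 1.77% of all peaks. The CRE core was in 20 of 45 and 27 of 72, that is 44.4% and 37.5%, against 26.3% and 21.7%. Over whole peaks at the NR4A loci there were 4.44 cores per kb for control females and 3.58 for VEDS males. All peaks of those lists held 1.30 and 0.986 per kb, peaks at the EGR loci 2.53 and 1.43, and peaks at the *Ier2*, *Ier3* and *Btg2* loci 2.60 and 1.90, the arms of full CREs included. In RefSeq promoters a CArG box was present in 1.63% and a full CRE in 1.79%. These are descriptions of sequence, and peaks at 1 gene share their surroundings. A site for EGR factors themselves (GCGTGGGCG on either strand) was found once, at −2108 bp of *Egr3*, and a site for NR4A factors (AAAGGTCA on either strand) once, at −44424 bp of *Ier3*. No share over all peaks stands beside these EGR and NR4A counts, so they are not read as a trait of these genes.

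**Figure D1:**
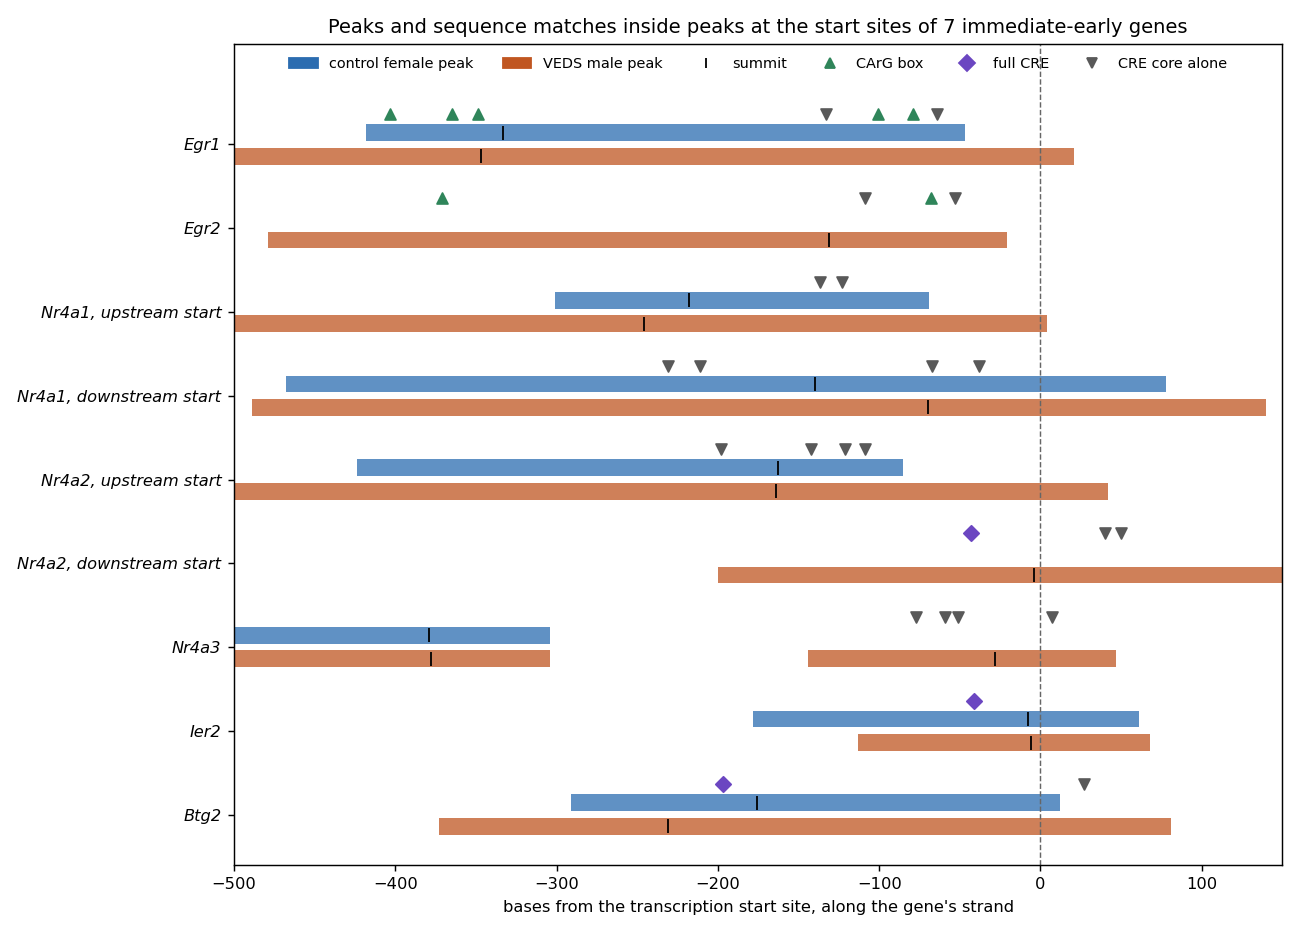
Peaks and exact sequence matches inside them around start sites of 7 of the 9 genes, in bases from the start site along the gene's strand, with peaks cut at the edges of the plot. Only start sites with a match in a peak within 250 bases upstream are drawn. *Egr3*, *Ier3* and the 5′ start site of *Egr1* had none and are left out. Bars are peaks of the control female and VEDS male lists with their summits as ticks. CArG boxes (triangles up) are in the *Egr1* and *Egr2* rows. CRE cores (triangles down) come in groups of 4 at the downstream start site of *Nr4a1*, the upstream one of *Nr4a2* and that of *Nr4a3*. The upstream *Nr4a1* row has 2 cores, and the downstream *Nr4a2* row a full CRE with cores beyond the start site.

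Nearly all of the 9 genes had an open promoter in both long lists. An own promoter peak was present for 8 of 9 genes in the control female list, all but *Egr2*, and for all 9 in the VEDS male list. Neither short list held one for any of the 9. Of all protein-coding genes, 47.4% (control female) and 58.5% (VEDS male) had a promoter peak in a long list, and 1.56% (control male) and 1.49% (VEDS female) in a short one. The 8 genes shared the pattern of a peak in both long lists and in neither short list with 9797 genes, 44.7% of those annotated. *Egr2* shared the pattern of a peak in the VEDS male list alone with 2463 genes, 11.2%.

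Most of the other immediate-early genes listed for this comparison also had a promoter peak in the long lists. Of 41 such genes (transcription factors such as *Fos* and *Jun*, and feedback and signalling genes such as *Dusp1* and *Gadd45b*), 37 had a promoter peak in the control female list and 40 in the VEDS male list. The control female list lacked *Egr4*, *Myc*, *Fosl1* and *Dusp2*, and the VEDS male list *Egr4*. In the short lists there was 1 each, *Dusp6*, a phosphatase of ERK, in the control male and *Zfp36*, which binds AU-rich mRNAs, in the VEDS female list. Of 20 upstream factors and partners, 17 had a promoter peak in the control female list and 20 in the VEDS male list. Those lacking one in the control female list were *Elk3*, a ternary complex factor of SRF, *Atf1*, of the CREB family, and *Rxrg*, a retinoid X receptor. *Mrtfa*, a coactivator of SRF, was the only one with a promoter peak in a short list, the control male. *Nab1* and *Nab2*, which repress EGR factors, and *Cnot7* and *Cnot8*, deadenylases bound by BTG2, had one in both long lists.

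**Figure D2:**
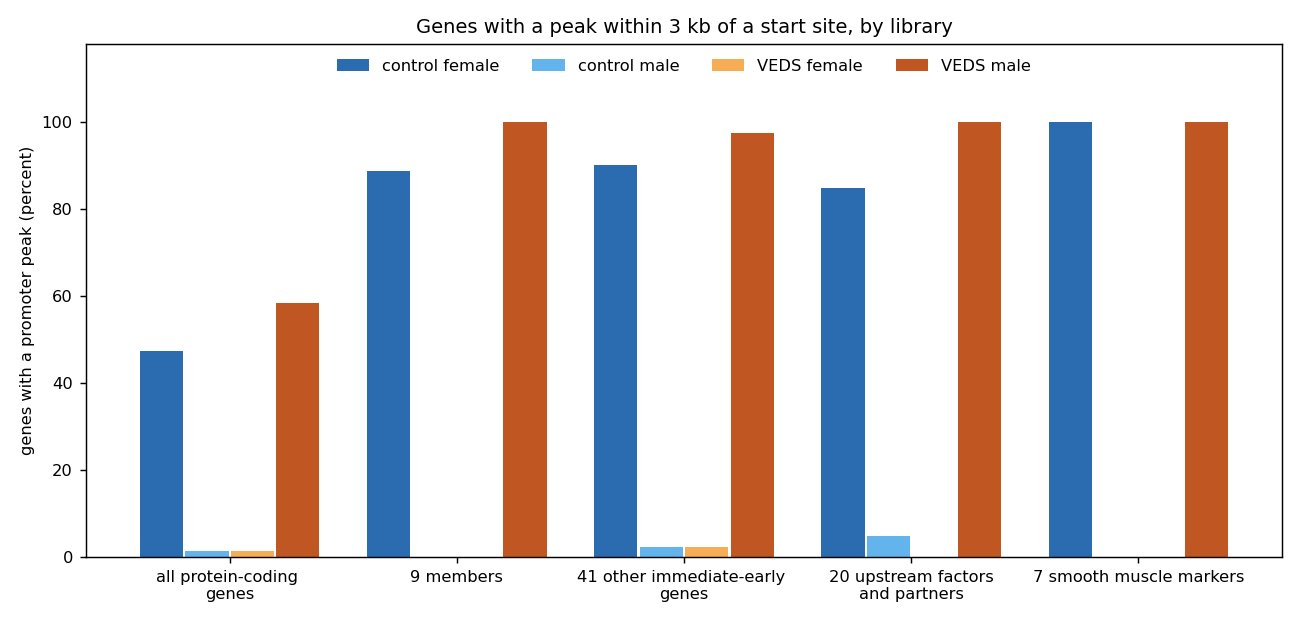
Percent of genes with a peak within 3 kb of a start site, for all protein-coding genes, the 9 genes, 41 other immediate-early genes, 20 upstream factors and partners and 7 smooth muscle markers. Each bar is 1 library. The 9 genes have bars only in the libraries with long lists.

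Promoters were only part of the open chromatin at these loci. Of the 72 regions, 18 were own promoters, 2 lay elsewhere in the gene's own body, 24 at the promoter of another gene, 5 in the body of another gene and 23 were intergenic. In both long lists were 15, 2, 14, 1 and 13 of these. A region near start sites of both the gene and another gene was counted as an own promoter. The VEDS male list held all 72 regions and the control female list 45, and no region was in the control female list alone. Of the 72 VEDS male peaks at the loci, 45 (62.5%) overlapped a control female peak, against 47.6% of all VEDS male peaks. Summits of shared regions were a median of 33 bp apart, from 0 to 261 bp. All 45 shared regions were in the upper 50% of the VEDS male list by −log10 q (median 19.3% from the top), as were 7 of the 27 unshared ones (median 69.1%). No such share over all VEDS male peaks stands beside these counts, so the split is not read as a trait of these loci.

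The number of peaks varied between the genes. *Nr4a1* and *Ier3* had 9 peaks each for control females and 13 each for VEDS males, which placed them at the 97.5th and 95.8th percentile of protein-coding genes, whose medians were 2 and 4. *Ier2* had 8 and 11 peaks, *Btg2* 6 and 10, and *Egr1* 5 and 8. *Egr3* had 3 and 7, *Nr4a3* 3 and 4, *Nr4a2* 2 and 4, and *Egr2* 0 and 2. At least 1 peak was present for all 9 genes among VEDS males, where 80.2% of protein-coding genes had one, and for 8 among control females, against 73%. In the short lists it was 1 gene for control males, against 7.97%, and 0 for VEDS females, against 5.42%.

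**Figure D3:**
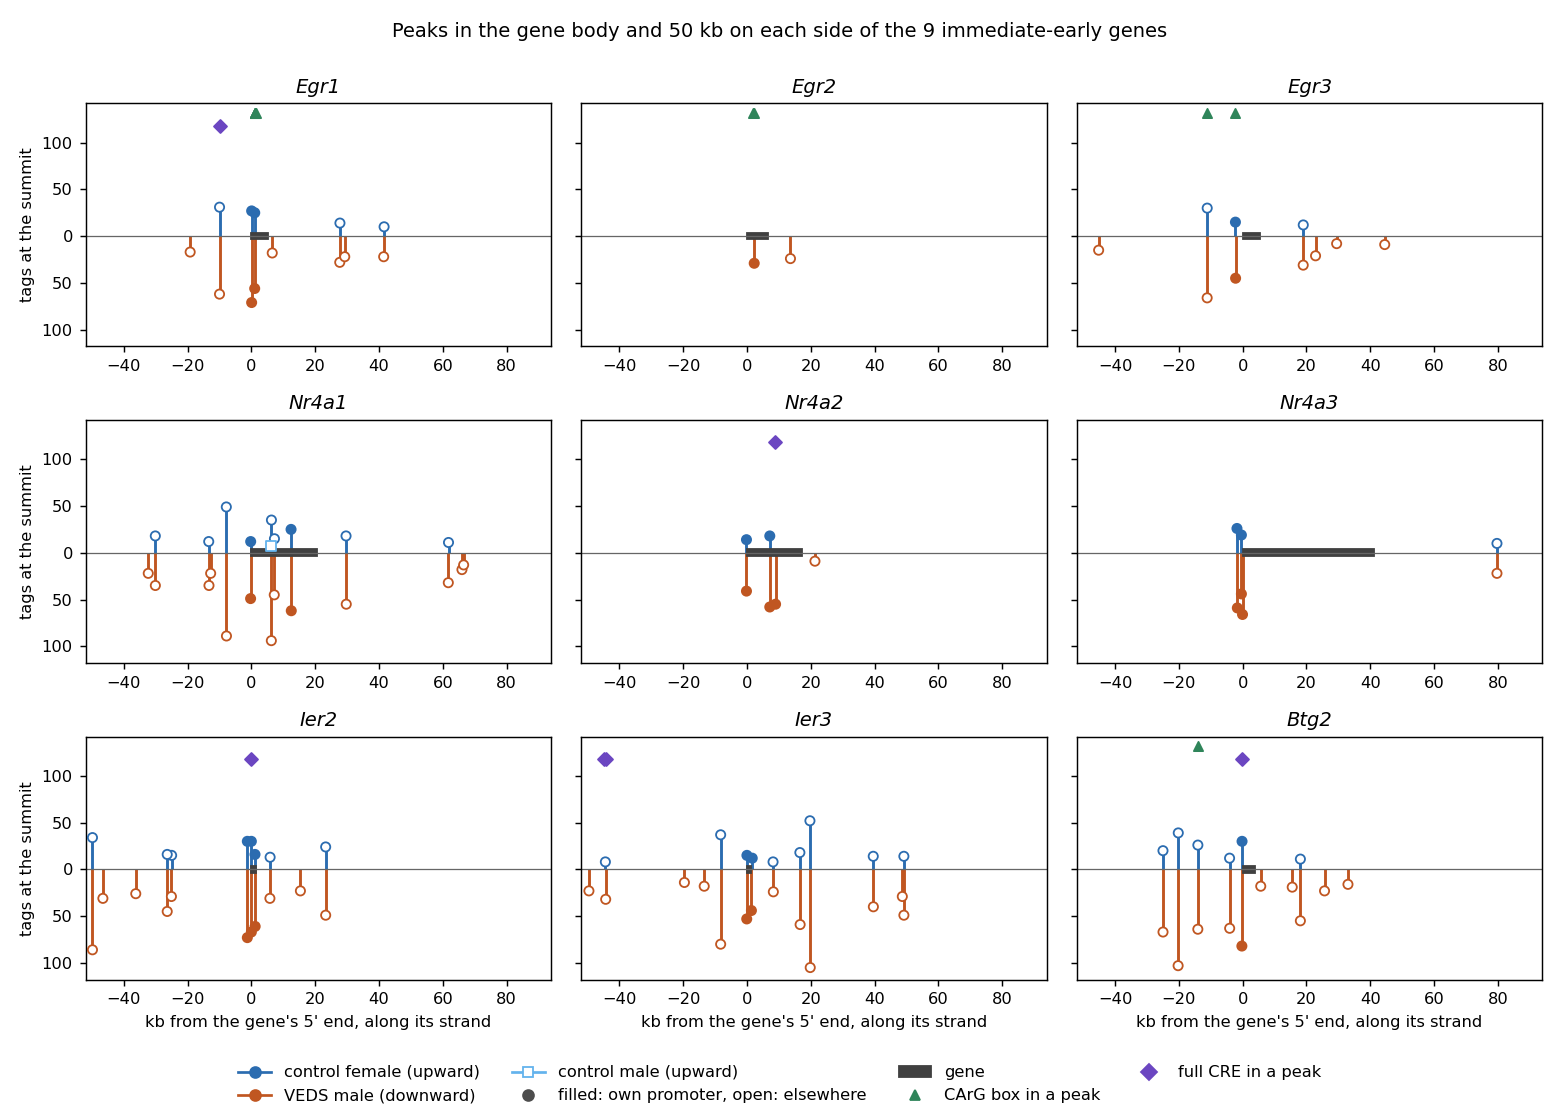
Peaks in the gene body and 50 kb on each side of the 9 genes. Each stem is a peak at its distance in kb from the 5′ end of the gene along its strand, with height in tags at the summit, control female and control male upward and VEDS male downward, and the gene as a dark bar. Stems at the same position above and below are shared regions, and the only control male peak, of 7 tags, is inside *Nr4a1*. Heights were not compared between libraries, whose median tags over all peaks were 14 (control female) and 22 (VEDS male).

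Of the few peaks among the top 10% of either long list, most lay away from coding promoters. In the control female list, 6 of the 45 peaks were among the 10% of highest −log10 q, and 1 of these 6 lay within 3 kb of a protein-coding start site, against 84.9% of all peaks of that rank. In the VEDS male list 3 of 8 did, against 80.5%. Over the whole lists, 27 of 45 and 37 of 72 peaks at the loci lay within 3 kb of one, against 51.1% and 40.2% of all peaks. By median rank, own promoter peaks stood higher than the other peaks at the loci, 42.7% against 50.6% from the top (control female). In the VEDS male list it was 19.4% against 41.2%. Over all peaks, those within 3 kb of a coding start site also stood higher, at 35.4% against 63.1% and 31.5% against 59.9%. The highest peak at the loci in each long list was that at the promoter of *Mdc1*. Among all promoter peaks by −log10 q, the highest own promoter peaks of the 8 genes with one in the control female list were between the 24.4th (*Ier3*) and the 69.4th (*Ier2*) percentile, 5 of them above the 50th. In the VEDS male list the 9 were between the 41.8th (*Egr2*) and the 80.8th (*Btg2*), and 8 were above the 50th. The highest of up to 3 own promoter peaks of a gene was set against single promoter peaks, which can raise the percentile. The 10% line sets which peaks are counted, since *Btg2* at −20169 bp, at 10.4% in the control female list, and *Egr1* at −9987 bp, at 10.7% in the VEDS male list, were just outside it.

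**Figure D4:**
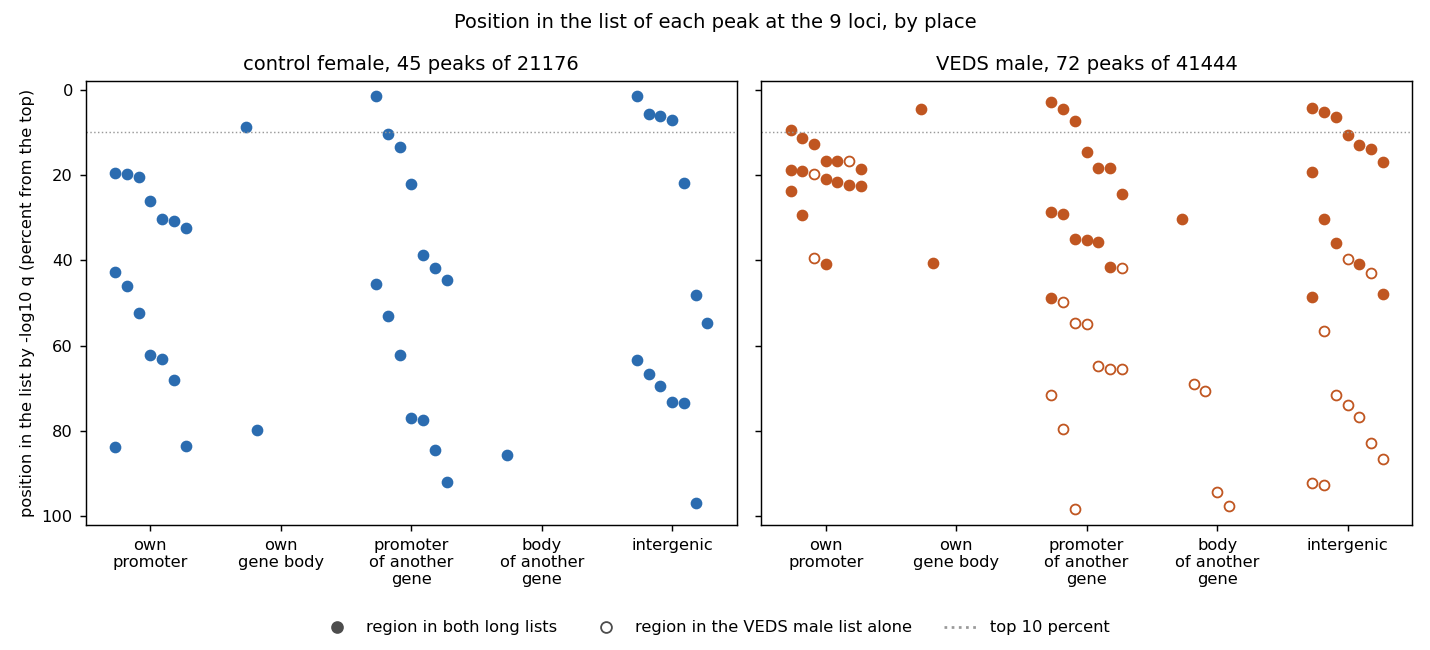
Position of each peak at the 9 loci in its list by −log10 q, in percent from the top, by where the peak lies, for the control female (45 peaks) and VEDS male (72 peaks) lists. Filled points are regions in both long lists and open points regions in the VEDS male list alone. Above the dotted line at 10% are 6 and 8 peaks, of which 0 and 1 are own promoters, and most open points lie in the lower part.

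*Nr4a1*, which encodes the receptor also called Nur77, occupies chr15:101254269-101274795 (+ strand). An intergenic peak at −7856 bp was its highest in the control female list, 340th of 21176, with 49 tags, and was 2139th in the VEDS male list, with 89 tags. Near its summit lay 2 CRE cores, at −7921 and −7739 bp. The highest in the VEDS male list was an intronic peak at 6256 bp, 1851st of 41444 with 94 tags, which was 1864th in the control female list with 35 tags. Both were ahead of the 2 own promoter peaks. The promoter shown above ranked 6438th (30.4% from the top) with 25 tags in the control female list. In the VEDS male list it was 8682nd (20.9%) with 62 tags. Ranks in this and the following paragraphs count from the top of lists of 21176 and 41444 peaks. A larger number can therefore be a higher place in the longer list. Tags are given per library and were not compared between lists. The peak at the upstream start site ranked 14395th with 12 tags and 7826th with 49 tags.

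The intronic *Nr4a1* peak was also the only one at the 9 loci in a short list. In the control male list it covered chr15:101260334-101260648, with 7 tags at the summit, a fold enrichment of 4.07 and a −log10 q of 1.69, and ranked 1076th of 1236. Its summit was at 101260557, against 101260558 in the control female list and 101260525 in the VEDS male list. The 200 bases around the control male summit (chr15:101260457-101260656, + strand, GRCm38), which overlap no annotated exon, are shown because 3 of the 4 libraries called this region, with the CRE cores in capitals.
Nr4a1 intron: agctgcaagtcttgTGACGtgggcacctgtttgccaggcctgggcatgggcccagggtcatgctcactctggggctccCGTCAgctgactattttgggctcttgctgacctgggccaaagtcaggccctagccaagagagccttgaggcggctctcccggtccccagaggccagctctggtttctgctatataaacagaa

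*Nr4a2*, chr2:57106830-57124003 (− strand), and *Nr4a3*, chr4:48045153-48086447 (+ strand), had few peaks outside their promoters. At *Nr4a2* the peak at the upstream start site, shown above, ranked 9048th with 14 tags in the control female and 7748th with 41 tags in the VEDS male list. An intronic peak at −1820 bp of the downstream start site ranked 9746th with 18 tags and 6926th with 58 tags. The peak over that downstream start site, which holds the full CRE at −43 bp, was in the VEDS male list alone, 8238th with 55 tags. At *Nr4a3*, peaks at −1769 and −379 bp were in both long lists, with 26 and 19 tags in the control female and 59 and 44 in the VEDS male list. The peak over the start site, which holds the 4 cores, was in the VEDS male list alone, 6944th with 66 tags. It was the highest *Nr4a3* peak of that list.

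*Egr1* (chr18:34859823-34864984, + strand), the best known early growth response gene, had 2 own promoter peaks, at the 5′ end of its longer transcript and upstream of the start site at 34861207, the latter inside an exon of the longer transcript. The first ranked 5505th with 27 tags in the control female and 4688th with 71 tags in the VEDS male list, the second 6884th with 25 tags and 9301st with 56 tags. The second peak held 5 CArG boxes in both lists, at −403, −365, −349, −101 and −79 bp of the start site at 34861207. An intergenic peak at −9980 bp ranked above both promoter peaks, 1506th with 31 tags in the control female and 4447th with 62 tags in the VEDS male list, and held a full CRE at −9939 bp.

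*Egr2* (chr10:67535475-67542188, + strand) had no peak of any kind in the control female list. In the VEDS male list its promoter peak, shown in part above, ranked 16397th with 29 tags and held both CArG boxes, at −371 and −68 bp of the start site at 67537869. The other peak of the locus, 17325th with 24 tags, lay at the promoter of its neighbour *Ado*.

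*Egr3* (chr14:70077203-70082614, + strand) had no peak over a start site in any list. Its own promoter peak was centred at −2249 bp, 11065th with 15 tags in the control female and 9405th with 45 tags in the VEDS male list. It was the gene that lost its promoter peak in both long lists when promoters were limited to 1 kb. Its highest peak was intergenic, at −11099 bp, 1329th with 30 tags in the control female and 2665th with 66 tags in the VEDS male list. Both peaks held a CArG box, at −2328 and −11086 bp.

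*Ier2* (chr8:84661331-84662852, − strand) had 3 own promoter peaks in both long lists. The one over the start site held the full CRE at −41 bp. It had 30 tags in the control female list and 67 in that of VEDS males, and ranked 4179th (19.7%) and 6912th (16.7%). A peak at −1271 bp had 30 and 73 tags, and one at 1133 bp, inside the short gene, 16 and 61. The highest peak of the locus belonged to the promoter of *Nfix*, at −49821 bp, with 34 and 86 tags.

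*Ier3* (chr17:35821684-35822923, + strand) lies in a dense stretch of genes, and 7 of its 13 regions were at the promoters of neighbours. Of its 2 own promoter peaks, the one over the start site ranked only 13364th with 15 tags in the control female list. That was the lowest rank among the best own promoter peaks there. In the VEDS male list this peak ranked 7860th with 53 tags. The other, at 1645 bp in the control female list, also overlapped a start site of the neighbour *Flot1* and is not among the 7. It ranked 17670th with 12 tags and 12137th with 44 tags. The highest peak, 336th with 52 tags and 1168th with 105 tags, was at the promoter of *Mdc1*, a DNA damage gene, at 19732 bp. An intergenic peak at −8257 bp ranked 1201st with 37 tags and 1804th with 80 tags, and held no CArG box and no full CRE. The region with 2 full CREs ranked low in the control female list, 18135th with 8 tags, and 12551st with 32 tags in the VEDS male list. The control female peak, centred at −44399 bp, held only the CRE at −44316 bp, and the VEDS male peak held both.

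*Btg2* (chr1:134075170-134079120, − strand) had a single own promoter peak, with the full CRE at −197 bp. It ranked 4353rd with 30 tags in the control female list and 3961st with 82 tags in the VEDS male list, the only own promoter among the top 10% of either list. Upstream, a peak at −14027 bp held a CArG box at −14022 bp and 3 CRE cores, and ranked 4625th with 26 tags and 5428th with 64 tags. The highest peak of the locus, at −20169 bp, ranked 2200th with 39 tags and 1868th with 103 tags and lay at the start of the noncoding gene *Gm38140*.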

How the data were processed

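ATAC-seq peak lists of 4 libraries of aortic nuclei were used, 2 for each genotype. Alignment by the authors was to mm10 (GRCm38), and MACS2 called narrow peaks in each library with barcode-aware removal of duplicates and a correction for the Tn5 cut site, and leaving out blacklisted regions. The aligner and the threshold for a peak are not given in the sources used here, and the lowest −log10 q was between 1.30 and 1.32. The deposited score is 10 times the −log10 q without decimals. The deposited fold enrichment is a ratio to local background within a library. Values of −log10 p and of −log10 q were also used as deposited. Lists were compared by rank as a percent of the list, by position and by presence, not by these values. Tags at a summit, which are derived from them, are given for each library and were not compared between lists.

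The genes and lists were chosen with earlier results of these data known. Peaks overlapping the gene body or 50 kb on either side (GENCODE vM21) were taken, and were own promoter peaks within 3 kb of any start site of the gene. Overlap of at least 1 bp merged peaks. Tags at a summit are the integer that fits the deposited fold (pseudocount 1) together with the −log10 p, and were recovered for 99.2% to 99.9% of peaks and for 100% of 500 simulated ones. The median was 14 and 22 tags in the long lists and 7 and 6 in the short lists. Exact consensus matches were searched on GRCm38 within peaks, in 300-bp summit windows and in RefSeq promoters (GRCm38.p6, 250 bases before to 50 after the start). Of the gene symbols listed, 4 were matched through RefSeq synonyms. Genes named were the 9 genes, neighbours within 3 kb of a peak, and listed genes with a promoter peak in a short list or none in a long one, with a few listed genes as examples. Alternatives were stricter −log10 q of 5 and 10, other distances, equal list sizes, coding transcripts, masked peaks, looser motifs and leaving out each library. Versions were Python 3.11.15, pandas 2.3.3, numpy 2.4.6, pysam 0.24.0, scipy 1.17.1 and matplotlib 3.10.9.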

Additional observations from a re-analysis of the deposited data

Results flagged for a closer look

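The direction of the genotype difference was opposite in the sexes. VEDS minus control, the number of the 9 genes with an own promoter peak was −8 in females (8 in control, 0 in VEDS) and 9 in males (0 in control, 9 in VEDS). The number of peaks at the 9 loci was −45 in females (45 in control, 0 in VEDS) and 71 in males (1 in control, 72 in VEDS). Each sex had 1 library per genotype, so that this difference was not tested. The sign followed the length of the lists, with 41444 peaks (VEDS male) and 21176 (control female) against 1236 (control male) and 504 (VEDS female), and list length and group cannot be told apart.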

How the results depend on the processing

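Of 53 recomputations of a value above 0, 34 stayed within 1.5 times the value reported and 19 did not. Another 12, of the 0 own promoter peaks in each short list, could not raise that count and are not read as stability. The 34 include the runs without the short list of a genotype. Short lists held no region of their own at the loci, so such runs are not read as stability either. With only the 504 peaks of highest −log10 q of each list, 0 genes had an own promoter peak in either long list (0 for control females, 0 for VEDS males), and with a −log10 q of at least 10 the control female list kept 5. Regions in control libraries numbered 69 within 100 kb and 19 at a −log10 q of at least 10, and those in VEDS libraries 46 within 20 kb and 119 within 100 kb. With 1 mismatch, 8 genes in control and 9 in VEDS libraries had a CArG match, with no share over all peaks to set beside it. With the CRE core in place of the full CRE there were 8 and 9 genes, and with own promoter peaks only 2 and 3 genes with a full CRE.

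Each genotype rested on its long list. Leaving out each control library in turn gave 1 to 45 regions, 0 to 3 genes with a CArG box and 0 to 4 with a full CRE, the lowest without the control female library. Leaving out each VEDS library gave 0 to 72 regions, 0 to 4 genes with a CArG box and 0 to 5 with a full CRE, the lowest without the VEDS male library. No paired analysis was possible because no result came from a test. The short lists had medians of 7 and 6 tags at a summit, and whether this set which promoters were called was not tested.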

Other observations

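Besides the full CREs, the region centred at −44399 bp of *Ier3* in the control female list, in the body of the noncoding gene *4833427F10Rik*, held the only match to the NR4A consensus at the 9 loci, at −44424 bp (chr17:35777257-35777264), between the CRE at −44724 bp and the one at −44316 bp. The CRE at −44724 bp was in the VEDS male peak alone. No share of all peaks with an NR4A match stands beside the single match at these loci. Among promoter peaks of all genes, the widest own promoter peaks of *Egr1* and *Nr4a3* in the VEDS male list, 860 and 723 bp, were at the 96.8th and 92.2nd percentile of width, and those of *Nr4a1* and *Nr4a3* in the control female list, 547 and 462 bp, at the 92.3rd and 85.1st. The widest of a gene's peaks was set against single peaks, which can raise the percentile. The widest *Ier2* promoter peak was 240 bp in the control female list, over the start site, at the 39.8th percentile. In the VEDS male list it was 294 bp, at −1270 bp, at the 38.8th percentile, and the peak over the start site was 182 bp.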
